A study of Mus musculus with 6 samples.

Results

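Aldehyde dehydrogenases that clear smoke aldehydes were followed in MLE-12 cells, an immortalised mouse lung epithelial line, after cigarette smoke extract (CSE). The 10 genes, of 36047 with summed values, were taken by symbol for their role in aldehyde clearance, not by a threshold on these values: Aldh3a1, Aldh3a2, Aldh3b1, Aldh2, Aldh1b1, Aldh7a1, Aldh9a1, Aldh1a1, Aldh1a7 and Adh5. Earlier results of these data were known when they were chosen. PolyA RNA was sequenced from 3 libraries of cells given PBS and 3 of cells given 5% CSE of optical density 2.0. Both groups are labelled wild type, are the same line, were treated at 30% culture density and were harvested 24 h later. The comparison asked which of these enzymes changed at the RNA level with smoke extract.

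Cigarette smoke carries acetaldehyde, acrolein and formaldehyde, and oxidised membrane lipids release further reactive aldehydes inside the cell. Aldehyde dehydrogenases oxidise these aldehydes to less reactive carboxylic acids with NAD+ or NADP+ as the electron acceptor, and the family members differ in compartment and in preferred substrate. Adh5, an alcohol dehydrogenase by family, clears formaldehyde after it has combined with glutathione.

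Library totals lay between 12093009 and 24050167 estimated counts. Of 6 epithelial marker genes, 5 exceeded 1 TPM (a transcript level scaled for length and depth, comparable between genes). The 6 summed to 1160 to 1280 TPM in PBS and 605 to 691 TPM in CSE. Nearly all of that sum was Krt19 and Krt8, with means of 1010 and 206 TPM in PBS. The next highest, Cdh1, had a mean of 6.04 TPM there. The lineage factor Nkx2-1 was present at 121 TPM in PBS. The alveolar type 2 product Sftpc reached 3.09 TPM there. Club cell markers summed to 0 to 0.581 TPM in PBS and 0.481 to 0.741 TPM in CSE, with Scgb3a2 at 0. Of 3 alveolar type 2 genes tested, Sftpc alone was called, lower at 0.942 TPM in CSE (log2 change −1.57 ± 0.37, edgeR adjusted p = 0.0205). It had 55 counts in PBS and 19 in CSE. Leukocyte markers summed to 2.99 to 6.2 TPM in PBS and 2.93 to 5.27 TPM in CSE. Endothelial markers summed to 1.69 to 2.18 TPM in PBS and 0.746 to 1.25 TPM in CSE, with Cdh5 at 0. Alveolar type 1 markers summed to 687 to 742 TPM in PBS and 397 to 450 TPM in CSE, and all 4 (Ager, Hopx, Pdpn and Aqp5) were called lower. The fibroblast sum, nearly all of it Dcn, was 868 to 1130 TPM in PBS and 477 to 544 TPM in CSE. Of 3 genes tested on that list, Dcn and Col1a1 were called lower. Col1a1 went from 14.7 to 9.05 TPM (log2 change −0.60 ± 0.07, edgeR adjusted p = 0.000353). Pdgfra was called higher, from 2.67 to 4.49 TPM (log2 change 0.84 ± 0.12, edgeR adjusted p = 0.00125). The lower epithelial, alveolar type 1, Sftpc, Dcn and Col1a1 levels went with treatment, and their part in the results below was not tested. Whether replicate libraries are separate cultures is not stated in the labels, so a p-value here measures library spread that may be technical only.

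With smoke extract, 4 of the 9 members that could be tested were called higher, by very different amounts. Aldh3a1 rose 7.16-fold, while Aldh7a1, Aldh2 and Adh5 rose by 37.8%, 32.1% and 26.7%. Aldh3a2, Aldh9a1, Aldh1a1, Aldh1a7 and Aldh3b1 did not pass the threshold, an adjusted p of 0.05 in edgeR's quasi-likelihood test (Benjamini-Hochberg over all 13451 tested genes). Aldh1b1 had no counts. By the same rule 4.32% of all tested genes were higher in CSE and 7.12% were lower, and 11.4% were called in either direction. The members were chosen with earlier results of these data known, so no test is drawn from these shares. No member was called lower, although Aldh3b1 had an unadjusted p = 0.0103 in that direction (edgeR, adjusted p = 0.0737). DESeq2 and limma-voom also called 4 higher and 0 lower. Limma on log2(TPM + 1) or log2(TPM + 0.1) called 2 higher and 1, Aldh3b1, lower. With any single CSE library left out, 2 were called higher and 0 lower. The median log2 change of the 9 was 0.29, against 0.01 over all tested genes. In bulk RNA, fewer cells of a type and less RNA per cell cannot be told apart.

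**Figure D1:**
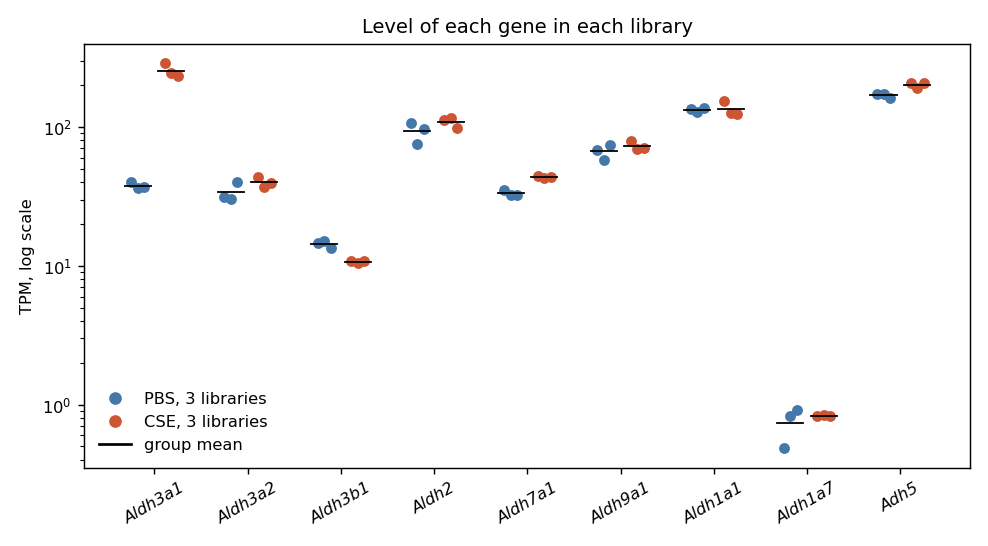
TPM of the 9 members with counts, on a log axis, for 3 PBS (blue) and 3 CSE (red) libraries, with group means as bars. Aldh3a1 moves from 36.1 to 40.1 TPM in PBS to 234 to 288 TPM in CSE, above every other member.

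Aldh3a1 (chromosome 11, 61207537 to 61218421, GRCm38, plus strand) encodes a mainly cytosolic enzyme that acts on medium-chain and aromatic aldehydes and is induced in many tissues through the aryl hydrocarbon receptor (AhR). Its level was 40.1, 36.1 and 36.7 TPM with PBS and 288, 243 and 234 TPM with CSE. The groups lay far apart, and the spread within each was small beside the gap. The log2 change was 2.84 ± 0.10 (SE; edgeR, adjusted p = 5.04e-08), ranking 4 by p-value among all tested genes, on 1832 counts in PBS and 13449 in CSE. In PBS its mean of 37.6 ± 2.20 TPM (SD, n = 3) ranked below Adh5, Aldh1a1, Aldh2 and Aldh9a1 and lay within the range of Aldh3a2. In CSE its mean of 255 ± 29.3 TPM (SD, n = 3) was the highest, and its lowest library lay above the highest Adh5 library, at 208 TPM. None of the 1691 words of 31 bases in its leading transcript occurs in a transcript of another gene, the unit by which kallisto assigns reads.

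Aldh3a1 held a larger share of the family's summed level in every CSE library than in any PBS library. The 21 genes named Aldh summed to 636, 577 and 653 TPM with PBS and to 945, 849 and 808 TPM with CSE. These groups did not overlap, at a two-sided exact permutation p = 0.1, which is the smallest that 3 against 3 libraries allow, and at 0.144 after Benjamini-Hochberg adjustment over 13 such values. Without Aldh3a1 the other 20 summed to 584 ± 38.9 TPM in PBS and 613 ± 41.7 TPM in CSE (SD, n = 3), and the groups overlapped (exact permutation p = 0.5). Aldh3a1 held 6.31%, 6.25% and 5.62% of the family sum with PBS and 30.5%, 28.6% and 28.9% with CSE. Aldh1a1 held the largest share in PBS, with a mean of 21.4%, and 15.5% in CSE.

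**Figure D2:**
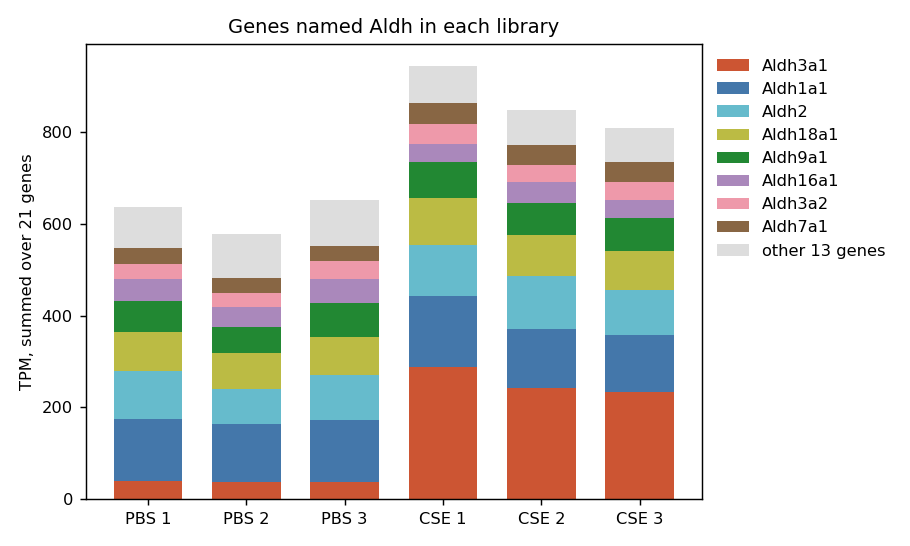
TPM summed over the 21 genes named Aldh in each library, stacked by gene from a baseline of 0. The Aldh3a1 segment is 6.06% of the bar on average in PBS and 29.3% in CSE, while the rest of the bar averages 584 TPM in PBS and 613 TPM in CSE.

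Aldh3a1 has a pair of transcripts in use, Aldh3a1-202 and Aldh3a1-201. They start 124 bases apart, at 61208621 and 61208745, end at the same base and carry the same 1359 coding bases, so they differ only ahead of the start codon. Aldh3a1-202 took 75.0%, 79.8% and 76.9% of the gene's counts with PBS and 89.5%, 85.6% and 83.1% with CSE. The groups did not overlap (exact permutation p = 0.1, adjusted 0.144). Both transcripts were more abundant in CSE: Aldh3a1-202 averaged 29.1 and 220 TPM in PBS and CSE, and the means of Aldh3a1-201 were 8.57 and 34.7 TPM. The division of reads between transcripts of one gene is a model estimate whose error the files do not give.

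**Figure D3:**
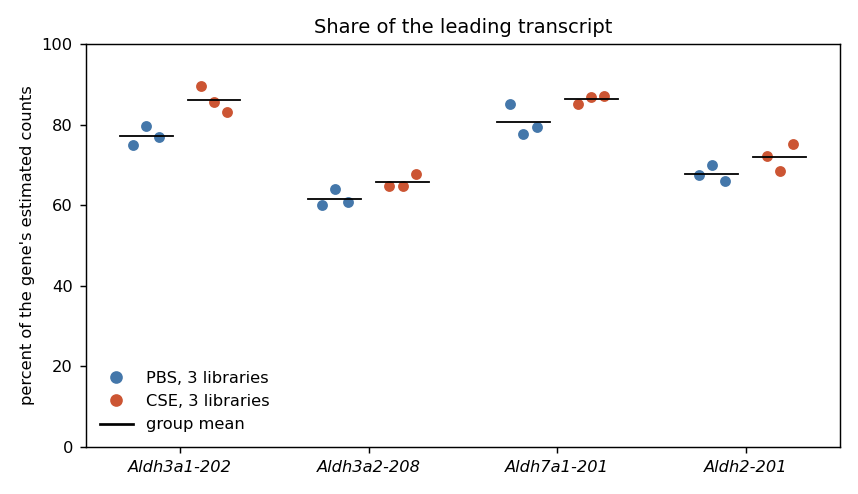
Share of a gene's estimated counts held by its leading transcript, for Aldh3a1, Aldh3a2, Aldh7a1 and Aldh2, in 3 PBS (blue) and 3 CSE (red) libraries with group means as bars. Aldh3a1-202 lies at 75.0% to 79.8% in PBS and 83.1% to 89.5% in CSE.

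Aldh3a2 lies 4995 bases beyond Aldh3a1 on chromosome 11 (61223417 to 61267464, minus strand) and encodes the fatty aldehyde dehydrogenase, a membrane enzyme that oxidises long-chain aldehydes from sphingolipid, ether lipid and phytol breakdown. Its level was 31.1, 30.4 and 40.4 TPM with PBS and 43.8, 37.1 and 39.2 TPM with CSE. The third PBS library lay inside the CSE range, so the groups overlapped. CSE minus PBS was 0.29 ± 0.10 on the log2 scale (edgeR, adjusted p = 0.0963), with a range of 0.20 to 0.40 over 16 alternatives and adjusted p-values of 0.0252 to 0.3. The gene passed the threshold without that library (0.40, edgeR adjusted p = 0.0395) and with no filter on low counts (0.0252). The coding sequences of the neighbours Aldh3a1 and Aldh3a2 are 67.8% identical over 1345 aligned bases, and their leading transcripts share no 31-base word with other genes.

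Most Aldh3a2 counts were assigned to Aldh3a2-208, an incomplete transcript model with an extra exon. Aldh3a2-202 ends its coding sequence 9 bases into the last exon, whereas Aldh3a2-208 reads from the same upstream exon into a 113-base exon (chromosome 11, 61247929 to 61248041) and ends there after 78 coding bases. A longer tail of this kind is known to direct a variant of the enzyme to peroxisomes. The coding ends are shown 5′ to 3′ on the gene's strand because they separate the variants, with the last 30 bases of the shared exon in lower case and the bases that differ by splicing in capitals.
Aldh3a2-202: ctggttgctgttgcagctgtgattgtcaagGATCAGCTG
Aldh3a2-208: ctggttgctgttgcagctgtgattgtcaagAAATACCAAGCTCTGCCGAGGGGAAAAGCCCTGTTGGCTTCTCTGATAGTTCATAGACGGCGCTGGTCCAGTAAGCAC

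Aldh3a2-208 took 60.03%, 64.0% and 60.8% of the gene's counts with PBS and 64.7%, 64.8% and 67.8% with CSE. The groups did not overlap, but the nearest libraries were less than 1 percentage point apart (exact permutation p = 0.1, adjusted 0.144). Aldh3a2-202 took the rest almost entirely, with means of 37.7% and 33.0%. Aldh3a2-208 is annotated as an incomplete model of 1886 bases that lacks the start of the gene. Its TPM (24.9 in PBS, 30.7 in CSE) is therefore scaled to a shorter length than that of Aldh3a2-202 (8.86 and 8.93). Both models end at base 61244853 and share sequence on either side of the 113-base exon. Reads from shared sequence are divided between them by a model, so the share of counts does not measure use of that exon.

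Promoter windows, 250 bases ahead of a RefSeq start and 50 after it (GRCm38.p6), were read for 7 of the 10 members. Those of Aldh3a1, Aldh2 and Aldh7a1 were not analysed here. Both strands were searched for the AhR element core GCGTG, its longer form TNGCGTG, which contains the core, and the core of the antioxidant element, TGACNNNGC, to which NRF2 binds. The window of Aldh3a2 held the longer form once, 119 bases ahead of the start. It occurs in 5.1% of 32851 windows of this length, and the core in 32.4%. The 250 bases ahead of the start (chr11:61267187-61267436, minus strand) are shown for this neighbour of Aldh3a1, with the match in capitals.
Aldh3a2: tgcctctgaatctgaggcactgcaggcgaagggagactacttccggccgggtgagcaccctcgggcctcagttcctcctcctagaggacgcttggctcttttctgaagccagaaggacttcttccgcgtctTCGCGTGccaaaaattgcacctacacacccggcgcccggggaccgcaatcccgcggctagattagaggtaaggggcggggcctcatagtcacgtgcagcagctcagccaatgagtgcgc

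Aldh9a1 held the longer form once, a further core and the antioxidant core once, the latter found in 12.4% of windows. A window of Adh5 held the core once, 17 bases after the start. No match was found in the windows of Aldh3b1, Aldh1b1, Aldh1a1 and Aldh1a7. Matches are letters in a window and were not measured as binding sites. Among the members called higher, only Adh5 had windows here, and any relation of matches to change was not tested.

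Aldh3b1 (chromosome 19, 3913491 to 3929808, minus strand) encodes a membrane-anchored enzyme that oxidises lipid-derived aldehydes. Its level was 14.7, 15.1 and 13.5 TPM with PBS and 10.8, 10.5 and 10.8 TPM with CSE. Every CSE library lay below every PBS library, a pattern that 19.3% of all tested genes showed in this direction. The log2 change was −0.34 ± 0.11 (edgeR, adjusted p = 0.0737), with a range of −0.43 to −0.29 over 17 alternatives. It was called lower by limma on log2(TPM + 1) at −0.40 (adjusted p = 0.0451). Of its words, 16.2% occur in other genes, mostly Aldh3b3, and the sum of Aldh3b1, Aldh3b2 and Aldh3b3 changed by −0.31 (edgeR, adjusted p = 0.0957). The related genes were barely present, Aldh3b2 at 0.801 TPM and Aldh3b3 at 0.102 TPM in PBS.

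Of the mitochondrial acetaldehyde enzymes Aldh2 and Aldh1b1, only Aldh2 had counts. Aldh2 (chromosome 5, 121566027 to 121593824, minus strand), the main enzyme for acetaldehyde, stood at 106, 76.0 and 96.5 TPM with PBS and at 112, 116 and 98.7 TPM with CSE. The groups overlapped on this scale. On estimated counts the log2 change was 0.40 ± 0.10 (edgeR, adjusted p = 0.0219). The call was lost with an offset for effective length (0.31, adjusted p = 0.167) and on the log2(TPM + 1) scale (limma, 0.24, adjusted p = 0.301). It was also lost when CSE replicate 1, 2 or 3 or PBS replicate 3 was left out. There the change stayed at 0.40 and edgeR's adjusted p lay between 0.0669 and 0.0848. The call held without PBS replicate 1 (0.51, edgeR adjusted p = 0.00377) and without PBS replicate 2 (0.29, edgeR adjusted p = 0.0333). The size of the change thus varied with the PBS libraries kept.

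The Aldh2 counts were spread over several transcript models. Aldh2-201, with the full 1557 coding bases, held 67.8% of counts in PBS and 72.0% in CSE, and Aldh2-202, which ends at an earlier last exon, held 19.0% and 15.2%. The means of the short models differed in opposite directions. Aldh2-206 averaged 9.77 ± 9.51 TPM in PBS and 20.1 ± 6.04 TPM in CSE (SD, n = 3), and the groups of its share overlapped. Its PBS libraries had 18.99, 4.63e-06 and 10.33 TPM, so almost nothing was assigned to it in the second. Aldh2-207 averaged 22.3 ± 3.15 and 18.1 ± 5.71 TPM, and its share of counts was 5.48% and 3.56%, in groups that did not overlap (exact permutation p = 0.1, adjusted 0.144). Since TPM divides by length, such short models weigh more in the gene's TPM than in its counts. The part of these models in the gap between the scales was not tested. Of the gene's exon bases, 130 also belong to Gm42879 on the opposite strand, and the strand setting of the counting is not given in the sources used here.

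Aldh1b1 (chromosome 4, 45799022 to 45804604, plus strand), the other mitochondrial acetaldehyde enzyme, had 0 counts in all 6 libraries. A count of 0 allows up to 3 counts, or 0.125 to 0.248 CPM depending on the library, by counting error only. None of its words occurs in another gene, and its coding sequence is 70.2% identical to that of Aldh2.

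Aldh7a1 (chromosome 18, 56509687 to 56572951, minus strand), known as antiquitin, oxidises an aldehyde of lysine breakdown and also acts on lipid-derived aldehydes and betaine aldehyde. Its level was 35.4, 32.6 and 32.4 TPM with PBS and 44.0, 43.2 and 43.4 TPM with CSE. The groups did not overlap, and the CSE libraries lay within 1 TPM of each other. The log2 change was 0.46 ± 0.08 (edgeR, adjusted p = 0.00501). The call held in all 16 alternatives, with values between 0.37 and 0.55 and adjusted p-values up to 0.0313. Of all tested genes, 7.89% had TPM ranges that did not overlap with CSE higher, and 3 members did, Aldh3a1, Aldh7a1 and Adh5.

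The transcript Aldh7a1-201 averaged 28.7 ± 2.60 TPM in PBS and 39.8 ± 0.269 TPM in CSE (SD, n = 3). Aldh7a1-208, which starts further upstream and has 1533 coding bases against 1617, averaged 2.64 and 2.50 TPM. The share of Aldh7a1-201 in the gene's counts was 85.0%, 77.7% and 79.3% with PBS and 85.1%, 86.8% and 87.0% with CSE. The first PBS and the first CSE library were almost equal (exact permutation p = 0.1, adjusted 0.144). On the opposite strand, Phax overlaps 300 of the gene's 5181 exon bases.

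Aldh9a1 (chromosome 1, 167349991 to 167368532, plus strand) makes a precursor of carnitine and oxidises aldehydes formed from polyamines. Its level was 68.7, 57.9 and 73.9 TPM with PBS and 79.4, 69.1 and 70.4 TPM with CSE. The groups overlapped. On the log2 scale the change was 0.20 ± 0.10 (edgeR, adjusted p = 0.209), and none of 16 alternatives called it.

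Aldh1a1 (chromosome 19, 20492715 to 20643465, plus strand) oxidises retinaldehyde to retinoic acid as well as lipid aldehydes, and Aldh1a7 (20692953 to 20727562, minus strand) is its close copy in rodents. Aldh1a1 stood at 134, 128 and 137 TPM with PBS and at 154, 127 and 124 TPM with CSE. The CSE libraries lay on both sides of the PBS range. Its change was 0.10 ± 0.08 on the log2 scale (edgeR, adjusted p = 0.47), between 0.02 and 0.16 over 17 alternatives, none of which called it. Aldh1a7 had 8, 18 and 20 counts with PBS and 12, 25 and 18 with CSE. Its depth-scaled ratio of CSE to PBS was 1.15, with a 95% counting interval (exact, conditional binomial) of 0.764 to 1.74. A change of the size seen in Aldh7a1 was therefore not detectable in Aldh1a7 at this depth.

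The copies could be told apart because their words mostly differ. The genes lie 49487 bases apart, their coding sequences are identical at 1377 of 1503 bases, and 13.9% of Aldh1a1 words occur in Aldh1a7. The longest identical run was 100 bases. The 60-base coding stretch with the most differences (bases 317 to 376 of the coding sequence, counted from the start codon, GENCODE vM21) shows how reads separate them, with the 16 differing bases in capitals.
Aldh1a1: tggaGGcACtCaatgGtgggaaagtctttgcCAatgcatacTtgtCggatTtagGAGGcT
Aldh1a7: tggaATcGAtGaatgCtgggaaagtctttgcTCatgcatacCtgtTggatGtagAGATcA

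Per length, Aldh1a1 was 151 to 278 times as abundant as Aldh1a7 across the PBS libraries and 150 to 186 times across the CSE libraries. Summing both genes gave a log2 change of 0.10 (edgeR, adjusted p = 0.462). Their promoters are closely alike. The 110 bases ahead of the RefSeq starts (GRCm38.p6; chr19:20601858-20601967, plus strand, and chr19:20727557-20727666, minus strand) are identical at 104 positions (94.5%), and the differing bases are in capitals.
Aldh1a1: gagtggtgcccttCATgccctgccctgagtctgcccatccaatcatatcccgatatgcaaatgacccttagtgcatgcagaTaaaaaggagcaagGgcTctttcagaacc
Aldh1a7: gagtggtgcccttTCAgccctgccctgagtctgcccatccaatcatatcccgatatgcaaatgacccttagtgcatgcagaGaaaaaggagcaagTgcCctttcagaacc

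Adh5 (chromosome 3, 138443093 to 138455499, plus strand) encodes the glutathione-dependent formaldehyde dehydrogenase, which also reduces nitrosoglutathione. It was the most abundant member in PBS, with 173, 174 and 161 TPM, and had 208, 190 and 207 TPM with CSE. The groups did not overlap. The log2 change was 0.34 ± 0.09 (edgeR, adjusted p = 0.0329). With 1 library left out the call was kept without PBS replicate 1 (0.42) and lost without any of the other 5, at values of 0.26 to 0.38 and adjusted p-values of 0.0523 to 0.156. Limma on log2(TPM + 1) gave 0.25 (adjusted p = 0.0791).

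**Figure D4:**
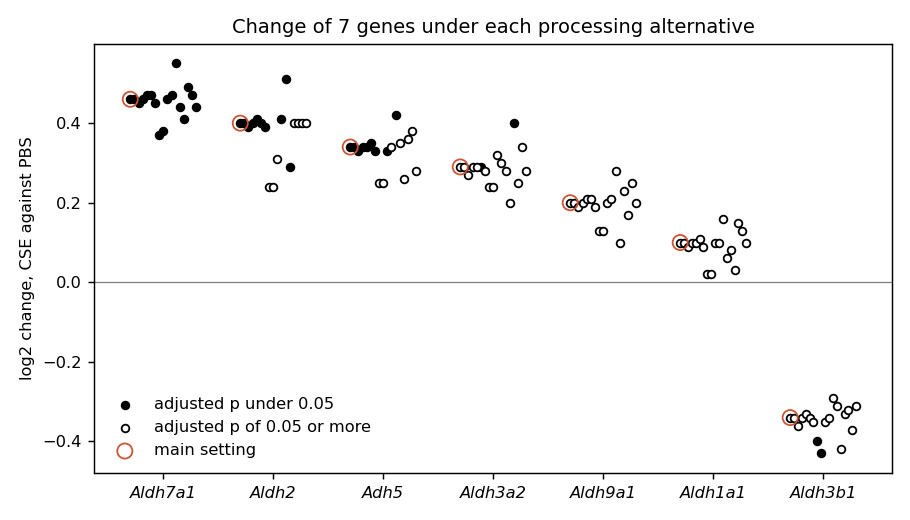
Log2 change of 7 members under the main setting (red ring, first point of each group) and each alternative, filled where the adjusted p is under 0.05. Aldh7a1 is filled throughout, while Aldh2 and Adh5 hold both filled and open points, and no gene crosses 0.

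By mean TPM the order of the members in PBS was Adh5, Aldh1a1, Aldh2, Aldh9a1, Aldh3a1, Aldh3a2, Aldh7a1, Aldh3b1 and Aldh1a7. Between neighbours in this order, only the libraries of Aldh3a1 and Aldh3a2 and those of Aldh3a2 and Aldh7a1 overlapped. In CSE the order was Aldh3a1, Adh5, Aldh1a1, Aldh2, Aldh9a1, Aldh7a1, Aldh3a2, Aldh3b1 and Aldh1a7, and Aldh7a1 and Aldh3a2 overlapped.

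Among the other 12 genes named Aldh, 1 of 11 tested rose, 2 fell and 8 were not called, with a median log2 change of 0.06. Over all tested genes, 4.32% were higher and 7.12% lower. This list and those below were chosen with earlier results of these data known. The 2 that fell, Aldh1a2 and Aldh1a3, make retinoic acid from retinaldehyde, as Aldh1a1 does. Aldh1a2 stood at 18.9, 18.5 and 19.1 TPM with PBS and at 6.96, 6.49 and 7.21 TPM with CSE, a log2 change of −1.36 ± 0.11 (edgeR, adjusted p = 1.86e-05). Aldh1a3 stood at 7.77, 6.69 and 6.95 TPM in PBS and at 3.28, 3.18 and 2.82 TPM in CSE, a change of −1.29 ± 0.15 (edgeR, adjusted p = 0.000286). In both genes the groups were well separated, and both calls held in all 16 alternatives. The mitochondrial folate enzyme Aldh1l2, which turns formyl-tetrahydrofolate into tetrahydrofolate, rose by 0.96 ± 0.09 from 13.2 to 20.7 TPM (edgeR, adjusted p = 5.53e-05), and by 0.62 on the log2(TPM + 1) scale (limma, adjusted p = 0.0216). It shares 17.1% of its words with D10Wsu102e. Aldh18a1, an enzyme of proline synthesis, stood at 0.28 ± 0.08 (edgeR, adjusted p = 0.0516), and 2 genes of this list were called higher with DESeq2 and with limma-voom.

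**Figure D5:**
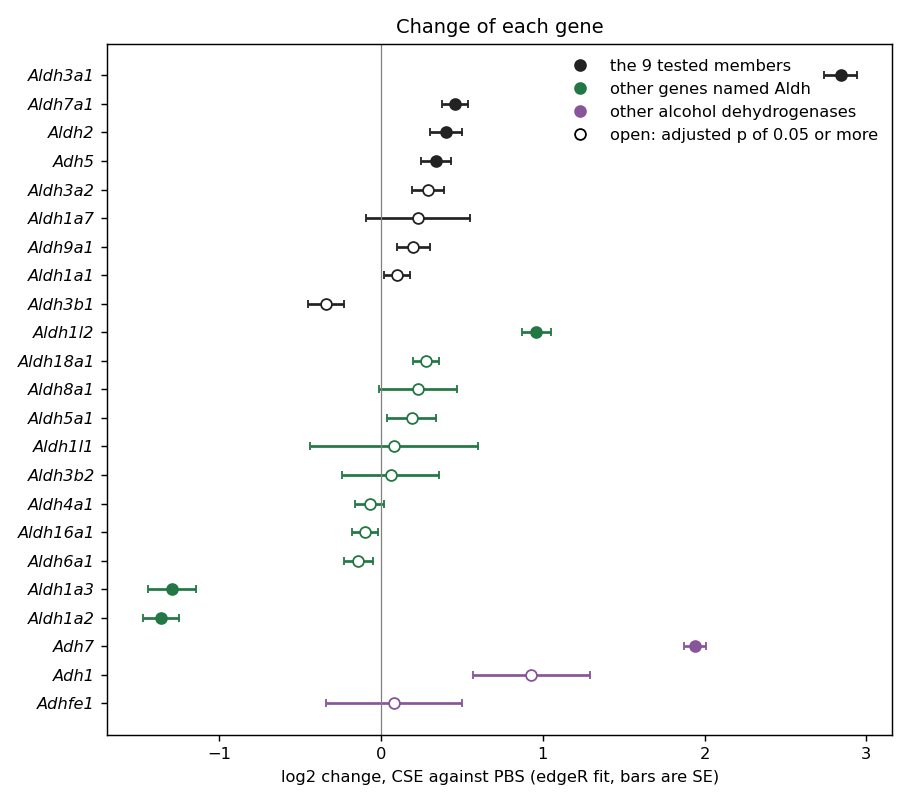
Log2 change with SE of the 9 tested members (black), the 11 other tested genes named Aldh (green) and 3 alcohol dehydrogenases (purple), filled where the adjusted p is under 0.05. Aldh3a1 and Adh7 lie at 2.84 and 1.94, and Aldh1a2 and Aldh1a3 at −1.36 and −1.29.

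Of 6 other alcohol dehydrogenases, 3 were tested and Adh7 rose. Adh7, which oxidises retinol and a range of alcohols and reduces lipid aldehydes, stood at 22.7, 28.4 and 28.0 TPM with PBS and at 95.7, 86.8 and 95.3 TPM with CSE. The groups lay apart, and the log2 change was 1.94 ± 0.07 (edgeR, adjusted p = 6.96e-08). Adh1 had 30 and 59 counts and was not called (0.93 ± 0.36, edgeR adjusted p = 0.126).

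Of 16 tested genes whose steps feed or follow the members, Esd alone was called, and the list's median was −0.02. Esd encodes the hydrolase that completes formaldehyde oxidation after Adh5. Its log2 change was 0.49 ± 0.09 (edgeR, adjusted p = 0.0058), with means of 280 ± 8.94 TPM in PBS and 361 ± 5.47 TPM in CSE (SD, n = 3), and 38.6% of its words occur in other transcripts. Without PBS replicate 1 or PBS replicate 2, 2 genes of the list were called. The sphingosine phosphate lyase Sgpl1, which makes a substrate of Aldh3a2, went from 35.3 to 34.2 TPM, a log2 change of −0.08 ± 0.08 (not called), and the amine oxidases Maoa and Maob, which release aldehydes, had changes of 0.03 ± 0.10 and 0.08 ± 0.10. Aass, which acts before Aldh7a1 in lysine breakdown, was low (2.83 and 2.38 TPM) and not called.

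Other enzymes clear aldehydes by reduction, by oxidation or by coupling to glutathione. Of 13 tested, 7 rose and 1 fell, with a median of 0.43, beside 4.32% higher and 7.12% lower over all tested genes. Gsta4, which couples hydroxynonenal to glutathione, rose by 1.92 ± 0.07 from 80.4 to 285 TPM, and the carbonyl reductases Cbr3 and Cbr1 rose by 1.01 ± 0.10 and 0.55 ± 0.10. The aldehyde oxidase Aox1 rose by 0.60 ± 0.11, a call lost with limma on log2(TPM + 1) (adjusted p = 0.0738). Dhrs4, a carbonyl and retinal reductase, rose by 0.38 ± 0.10, but kept its call without only 1 of the 6 libraries, PBS replicate 1. The aldose reductase Akr1b3 fell by 0.34 ± 0.08 (edgeR, adjusted p = 0.0215), with 90.8% of its words shared, and lost its call without any one of the CSE libraries. The count of genes that rose in this list was 4 when CSE replicate 2, CSE replicate 3 or PBS replicate 3 was left out.

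Of the AhR battery without Aldh3a1, 6 of 8 tested genes rose, with a median of 2.04, beside 4.32% higher over all tested genes. Cyp1a1, the oxidase most used as a readout of AhR, rose from 5 counts over the PBS libraries to 2913 over the CSE libraries. Tiparp, an AhR repressor, rose by 2.40 ± 0.08. The conjugating enzymes Gsta1 and Ugt1a6a rose by 3.76 ± 0.14 and 2.11 ± 0.09, with 92.2% and 100% of their words shared with other genes. Every word of the leading Ugt1a6a transcript occurs in Ugt1a7c, so the change of Ugt1a6a cannot be told apart by words from one of Ugt1a7c. Nqo1, a quinone reductase, rose from 54.3 to 200 TPM and the oxidase Cyp1b1 from 105 to 277 TPM, and Ahrr and Nfe2l2 were not called. All 6 genes that rose kept their call in every alternative that tested them. Of 9579 candidate genes with a group mean of 5 TPM or more, the 5 nearest to Aldh3a1 in profile were Ces1g, Tiparp, Gsta3, Irx3 and Slc22a14. All but Tiparp reached 5 TPM in the CSE group only, so they entered through the group where they are high. Likeness was the root mean square difference of log2 CPM, centred on the PBS mean, over the 6 libraries, and it was 0.331 for Ces1g and 0.347 for Slc22a14. It is a description of size and spread in these libraries and carries no test.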

How the data were processed

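RNA-seq of polyA RNA from 6 MLE-12 libraries was used, grouped by sample title (3 PBS, 3 CSE). Each of the authors' deposited files gives estimated counts and TPM for 118489 transcripts, per the file headers, which carry kallisto's column names. The length and effective length columns hold bases, per the file headers. Per the submitters' processing notes, GRCm38 was used with fastp 0.20.1, FastQC 0.12.1, kallisto 0.46.2 and DESeq2 1.40.2, with no roles stated. The index is not given in the sources used here, nor is strandedness.

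Identifiers with version were matched to GENCODE vM21 (116816 matched), and counts and TPM were summed per gene. The other 1673 transcripts, with 0.638% to 0.664% of counts, were left out. Summed counts were rounded, filtered with filterByExpr (minimum count 10) and scaled by TMM (factors 0.976 to 1.03), and the CSE libraries were tested against PBS by edgeR's quasi-likelihood test with treatment as the only factor. SE was the log2 change divided by the square root of the F statistic. Libraries of a group were not duplicates (chi-square per degree of freedom 5.61 to 17.7 over genes with at least 20 counts). Intervals and limits cover only counting error: reads that carry no molecular identifier are not independent molecules.

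The members and lists were chosen with earlier results of these data known. All 10 members were named, with the genes of each pathway list past the threshold (up to 6 of smallest p), transcripts with at least 5% of the counts of a member that has several such transcripts, and the 5 genes nearest to Aldh3a1 in profile. Aass, Adh1, Ahrr, Aldh18a1, Aldh3b2, Aldh3b3, Maoa, Maob, Nfe2l2, Sgpl1 and the marker genes given by name were named after their values were seen. The procedure was tested on simulated data with changes larger than those of Aldh7a1, Aldh2 and Adh5, so it was not tested at their size. Alternatives were other scalings (RLE, library size), limma-voom, DESeq2, no filter, a stricter filter (mean CPM of 5), limma with pseudocounts of 1 and 0.1 on TPM where the mean TPM reached 1, an effective length offset, the replicate block, each library left out, and summed copies. Tests ran in DESeq2 1.42.0, limma 3.58.1 and edgeR 4.0.16 under R 4.3.3; sequences and figures used Biopython 1.88, SciPy 1.17.1, matplotlib 3.10.9 and pandas 2.3.3 under Python 3.11.15.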

Additional observations from a re-analysis of the deposited data

How the results depend on the processing

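Aldh3a1 and Aldh7a1 kept their call in all 16 alternatives, Aldh9a1, Aldh1a1 and Aldh1a7 were called in none, and no member changed sign. With limma on log2(TPM + 1) or log2(TPM + 0.1), 2 members were higher and 1, Aldh3b1, was lower. Members called higher numbered 2 to 4 with 1 library left out, and 0 were lower. The number of genes called higher was 1052 with no filter on low counts, 224 with limma on log2(TPM + 1) and 220 with limma on log2(TPM + 0.1). With 1 library left out it ranged from 281 to 967, and the number called lower ranged from 554 to 981. The higher share of all calls was 37.8% in the main setting, 47.9% with no filter, 22.4% and 22.3% on the TPM scale and 49.8% without PBS replicate 1, while RLE and library size gave 37.7% and 35.7%. The cause was not tested. Same-numbered PBS and CSE libraries did not deviate together (correlations of −0.119, −0.017 and −0.076). With 3 libraries a group, centred on their own means, such a check cannot exclude that the numbers pair them. With the replicate number as a block, 331 genes were called higher and 691 lower, and among the members Adh5 was no longer called (0.34, edgeR adjusted p = 0.0884). The block also left 4 of the other aldehyde-clearing enzymes higher and 0 lower, and Dhrs4 (0.39, edgeR adjusted p = 0.0853) and Akr1b3 (−0.34, edgeR adjusted p = 0.079) were among those no longer called. Depth limits Aldh1a7, whose counting interval spans changes of both signs, and Aldh1b1, which had 0 counts.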
